A study of Homo sapiens with 18 samples.

Results

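The combination of gnetin H with phenformin was set against the combination of 2-deoxyglucose with phenformin in T98G cells, a human glioblastoma line. Gnetin H (GH) is a stilbene trimer from peony seeds, 2-deoxyglucose (2DG) is a glucose analogue that hexokinase phosphorylates but glycolysis cannot use further, and phenformin is a biguanide that inhibits mitochondrial complex I. Of the 18 RNA-seq libraries of the series, the 6 of these 2 groups were compared, chosen by their treatment labels. They were 3 libraries of cells given GH at 8 µM with phenformin at 100 µM and 3 libraries of cells given 2DG at 10 mM (the labelled dose) with phenformin at 100 µM, each for 2 h. GH alone, 2DG alone, phenformin alone (same doses and time) and the solvent DMSO made up the other 12 libraries, 3 a group. Phenformin is thus common to both sides of the comparison, and what differs is the agent given with it. Within each group the libraries carry the letters A, B and C of separate biological samples of 1 cell line, so the spread between them says nothing about other glioblastoma lines. Levels are FPKM, the fragments mapped to a gene, scaled by the length of its exons and by the depth of the library.

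Cells meet a shortage of usable glucose and a block of respiration with several transcriptional programmes. Disturbed protein folding in the endoplasmic reticulum (ER) activates the unfolded protein response, which raises ER chaperones and the machinery that removes misfolded proteins, and a shared arm, the integrated stress response, acts through the transcription factors ATF4 and CHOP. Unfolded proteins in the cytosol activate HSF1, the regulator of the HSP70 genes. The MondoA-MLX factor senses glucose 6-phosphate, and 2-deoxyglucose 6-phosphate as well, and drives TXNIP and ARRDC4, whose products restrain glucose uptake. Growth factor and stress kinases switch on immediate early genes such as EGR1 within minutes.

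One library stood apart. On the log2 scale, over all tested genes, library A of GH plus phenformin lay 57.2 and 57.8 units from libraries B and C of its own group, which lay 28.7 units from each other. The 3 libraries of 2DG plus phenformin lay 29.5 to 38.4 units apart. Library A held less of GC-rich transcripts, with a slope of -0.191 log2 units per 10 points of GC content against the mean of all libraries. The slopes were 0.228 and 0.231 in the other 2 libraries of GH plus phenformin and 0.081 to 0.311 in those of 2DG plus phenformin. They were -0.357 to -0.209 in phenformin alone and -0.301 to 0.047 in DMSO. In GH alone they were -0.171 to 0.043 and in 2DG alone 0.131 to 0.289, so the other groups differed along GC content as well. List counts are also given without library A, which stood apart from its own group. The 6 libraries held 19865754 to 22497604 mapped fragments, and mitochondrially encoded transcripts took 3.94%, 3.51% and 3.80% of them in GH plus phenformin, against 3.69%, 3.08% and 3.13% in 2DG plus phenformin (exact permutation test, two-sided p = 0.2, where the smallest possible is 0.1). The cells carried VIM at 961 to 1016 FPKM with GH plus phenformin and 1045 to 1063 FPKM with 2DG plus phenformin, and CD44 and FN1 were also abundant, with VIM lower by a log2 difference of -0.09 that no longer passed the test without library A, while the glial genes GFAP and SOX2 were at 0 in all 6 libraries and NES and OLIG2 stayed at or under 0.1422 FPKM. Of 17 markers of other cell types, 14 stayed under 0.5 FPKM in all 6 libraries, and the blood, T cell and epithelial genes HBB, CD3E and CDH1 were at 0. Their summed level was 27.8 to 46.9 FPKM in GH plus phenformin and 41.9 to 50.8 FPKM in 2DG plus phenformin, nearly all of it KRT18 and CD68, and of the 3 tested, KRT18, CD68 and SNAP25, 0 passed the limma test.

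**Figure D1:**
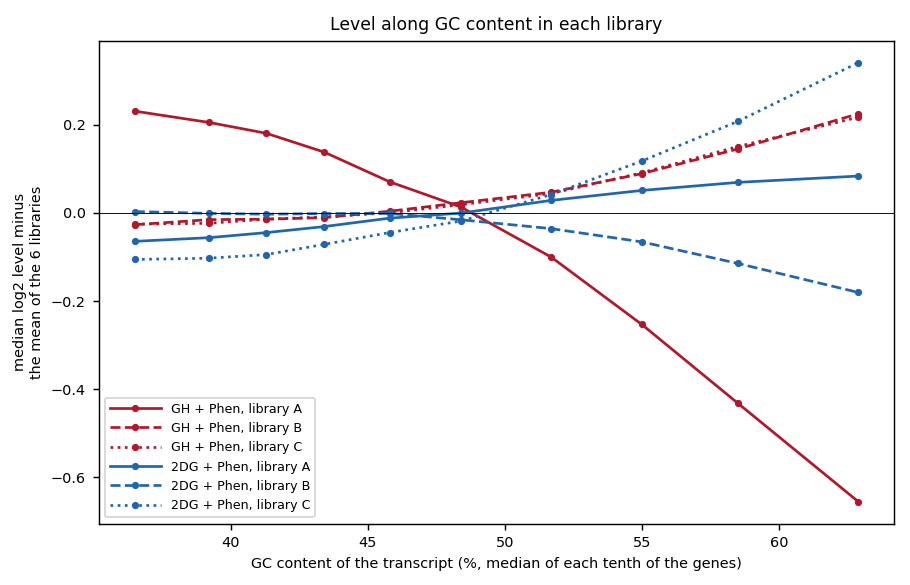
Median log2 level of the genes in each decile of GC content, minus the mean of the 6 libraries, for GH plus phenformin (red) and 2DG plus phenformin (blue), with a line for each library. In the GC-richest decile library A of GH plus phenformin stood at -0.65, libraries B and C at 0.22 and 0.22, and the 3 libraries of 2DG plus phenformin between -0.18 and 0.34.

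Across the 12108 genes tested, 1009 (8.33%) were higher and 261 (2.16%) lower with GH plus phenformin than with 2DG plus phenformin at a limma adjusted p under 0.05. Most of these differences were small, with a median log2 difference of 0.34 among the higher and -0.36 among the lower genes. The share of higher genes among all that differed was 79.4%, against 69.1% with median-of-ratios scaling and 66.5% with quantile normalization. Without library A of GH plus phenformin 600 of the 12108 genes were higher and 262 lower, the background for list counts without that library. The higher genes were GC-poor, with a median of 42.3% GC against 47.4% for the lower genes and 47.1% for all genes tested, in the direction in which library A deviates. After a correction for GC content and transcript length 945 genes were higher and 421 lower. A stricter list asked for a difference of at least 2-fold, a Bonferroni p of at most 0.05 and a mean of at least 1 FPKM in the higher of the 2 groups. It held 13 genes higher (0.107% of those tested) and 14 lower (0.116%) with GH plus phenformin. In all 27 the 3 libraries of one combination lay apart from the 3 of the other, as they did in 22.8% of all genes tested, and all 27 kept their direction and an adjusted p under 0.05 in each of the alternatives that could be fitted for them. In cultures of 1 line, a change in the level per cell and a change in the share of cells that express a gene cannot be told apart.

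**Figure D2:**
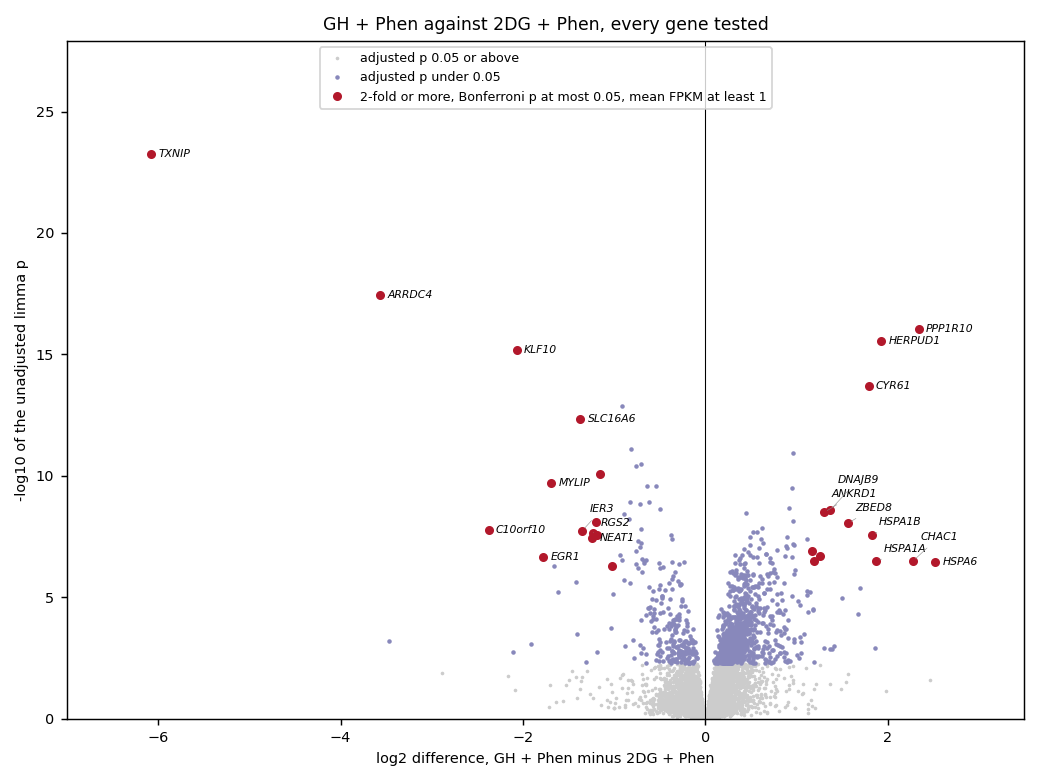
Each point is 1 of the 12108 genes tested, with the log2 difference, GH plus phenformin minus 2DG plus phenformin, on the x axis and -log10 of the unadjusted limma p on the y axis. The genes of the strict list are the red points, the 10 largest differences in each direction with names, 13 to the right and 14 to the left, from HSPA6 at 2.52 to TXNIP at -6.07.

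PPP1R10 was clearly higher with GH plus phenformin than with 2DG plus phenformin. It encodes PNUTS, the nuclear subunit that targets protein phosphatase 1 to the transcription machinery and slows RNA polymerase II at the ends of genes, and lies on chromosome 6 at 30600400 to 30618612 (GRCh38, minus strand). Its level was 19.7, 20.7 and 20.5 FPKM in the GH plus phenformin libraries, against 4.25, 3.70 and 3.84 FPKM in the 2DG plus phenformin libraries. The groups were far apart, a 5.16-fold difference of the means and a log2 difference of 2.34 ± 0.055 (SE; limma adjusted p = 3.72e-13). The gene stood at 29.5 ± 1.42 FPKM in GH alone, 3.07 ± 0.104 in 2DG alone, 12.8 ± 0.361 in phenformin alone and 14.5 ± 0.708 in DMSO (SD, n = 3 each). GH plus phenformin therefore lay above DMSO and below GH alone, while 2DG plus phenformin stayed near 2DG alone. The log2 difference between GH and 2DG changed by -0.88 when phenformin was present (limma adjusted p = 1.32e-05).

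PNUTS works with the cleavage, polyadenylation and termination machinery, and 8 of the 30 tested genes of that list were higher and 1 was lower with GH plus phenformin (26.7% and 3.33%, against 8.33% and 2.16% of all genes). The list's median log2 difference was 0.04, close to the 0.02 of all genes, and without library A 7 were higher and 0 lower. PCF11, which helps release the polymerase after the poly(A) site, was at 7.49, 6.17 and 6.14 FPKM with GH plus phenformin, against 3.29, 3.55 and 3.42 FPKM with 2DG plus phenformin. The anti-termination factor gene SCAF4 had a log2 difference of 0.49 and RBBP6, a subunit of the cleavage complex, one of 0.53. Levels in the other groups showed where these differences lie. PCF11 averaged 8.44 FPKM in GH alone, 3.80 in 2DG alone, 10.8 in phenformin alone and 10.3 in DMSO, so that both combinations lay below DMSO and 2DG plus phenformin furthest. Of 17 splicing factors and CLK kinases, 3 were higher (17.6%, against 8.33% of all genes), and 2 without library A. TRA2B led at a log2 difference of 0.33, and SRSF7 was lower at -0.14, a difference that was lost without library A.

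Some genes of the ER were higher with GH plus phenformin, while most of the list did not pass the test. Of 37 tested genes for ER chaperones, ER-associated degradation and the unfolded protein response, 10 were higher and 0 lower (27% against a background of 8.33%), and the list's median log2 difference was 0.14 against 0.02 for all genes. Without library A 9 were higher and 0 lower. The members with the smallest adjusted p were HERPUD1, HSPA5, XBP1 and DNAJB9, and the other 6 had log2 differences of 0.26 to 0.56. The ER chaperone genes HYOU1 and HSP90B1 did not pass, at 0.13 and 0.19 (limma adjusted p = 0.64 and 0.0552). The promoters of HERPUD1 and HSPA5 are shown because the elements known to bind the ER stress factors ATF6 and XBP1 lie in them. Each window is RefSeq sequence on GRCh38.p14, from 250 bases before the annotated start to 50 after it, read 5′ to 3′ on the gene's strand. The HERPUD1 window is chr16:56931892-56932191 (plus strand) and the HSPA5 window chr9:125241294-125241593 (minus strand). Capitals mark the matches found. In HERPUD1 these are an ATF4-CHOP composite element (TGATGNAA) 176 bases before the start and an ER stress response element II (ATTGG and CCACG with 1 base between them) 117 bases before it, and in HSPA5 an ER stress response element (CCAAT and CCACG with 9 bases between them) 66 bases before it.
HERPUD1: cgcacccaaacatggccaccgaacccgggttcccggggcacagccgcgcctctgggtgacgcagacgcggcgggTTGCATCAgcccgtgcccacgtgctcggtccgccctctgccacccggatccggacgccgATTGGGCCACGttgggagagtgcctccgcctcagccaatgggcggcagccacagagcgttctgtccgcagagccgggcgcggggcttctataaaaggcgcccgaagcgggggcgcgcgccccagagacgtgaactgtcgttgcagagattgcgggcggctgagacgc
HSPA5: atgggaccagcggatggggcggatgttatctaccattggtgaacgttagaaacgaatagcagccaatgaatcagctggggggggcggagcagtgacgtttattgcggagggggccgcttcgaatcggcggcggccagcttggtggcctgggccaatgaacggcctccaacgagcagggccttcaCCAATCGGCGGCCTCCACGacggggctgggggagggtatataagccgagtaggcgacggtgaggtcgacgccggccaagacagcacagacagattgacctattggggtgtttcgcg
Searched on both strands of the 35116 promoter windows of 300 bases, the element of HSPA5 occurred in 0.0769% of them, the element II in 0.0541% and the composite element in 3.62%. Of the 9 higher genes of the list with a window, XBP1 held the HSPA5 type as well, so 3 of 9 held either ER stress element. Over the whole list, genes that did not differ included, the HSPA5 type was in 7 of 32 windows and the element II in 3 of 32, a similar share.

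HERPUD1, which organises the degradation of ER proteins, was at 38.1, 36.0 and 36.2 FPKM with GH plus phenformin, against 9.95, 9.32 and 9.51 FPKM with 2DG plus phenformin. That is 3.83-fold, or 1.93 ± 0.049 (SE) on the log2 scale (limma adjusted p = 8.92e-13). In the other groups it averaged 37.3 ± 1.23 FPKM in GH alone, 40.7 ± 1.66 in 2DG alone, 9.01 ± 0.519 in phenformin alone and 10.1 ± 0.382 in DMSO (SD, n = 3 each). Both agents given singly thus stood about as high as GH plus phenformin, and 2DG plus phenformin lay at the level of phenformin and DMSO. The log2 difference between GH and 2DG was 2.05 ± 0.069 (SE) larger with phenformin than without (limma adjusted p = 2.16e-10). AC012181.2, a gene listed inside HERPUD1 on the same strand, averaged 1.92 FPKM against 1.46 FPKM and did not pass the test, and fragments of the 2 cannot be fully told apart.

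HSPA5, the main ER chaperone (BiP), was at 415, 366 and 363 FPKM with GH plus phenformin, against 200.2, 200.3 and 187.5 FPKM with 2DG plus phenformin, a 1.95-fold difference (limma adjusted p = 1.34e-08). GH alone averaged 356 ± 12.2, 2DG alone 407 ± 13.1, phenformin alone 177 ± 5.31 and DMSO 174 ± 6.71 FPKM. DNAJB9, a co-chaperone of BiP, was at 24.4, 19.2 and 20.4 FPKM against 8.06, 8.44 and 7.94 FPKM, 2.62-fold higher with GH plus phenformin. It averaged 23.6 FPKM in GH alone, 16.8 in 2DG alone, 8.95 in phenformin alone and 9.29 in DMSO. XBP1, a transcription factor of the response, differed less, at 50.6, 46.2 and 46.4 FPKM against 35.9, 34.7 and 34.1 FPKM. For all 4 genes the difference between the agents depended on phenformin, with differences of differences of 2.05 for HERPUD1, 1.15 for HSPA5, 0.88 for DNAJB9 and 0.58 for XBP1. Over all genes this test was passed by 196 of 12108 (1.62%), and by 850 without library A of GH plus phenformin.

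The N-glycan precursor and hexosamine pathway, into which 2DG can be drawn as a mannose analogue, did not move with the ER genes. Of its 34 tested genes 0 were higher and 0 lower (limma; 0 and 0 without library A, and 1 higher after a GC and length correction), with a median log2 difference of 0.035, and 3 of the 34 had groups that did not overlap, against 22.8% of all genes.

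**Figure D3:**
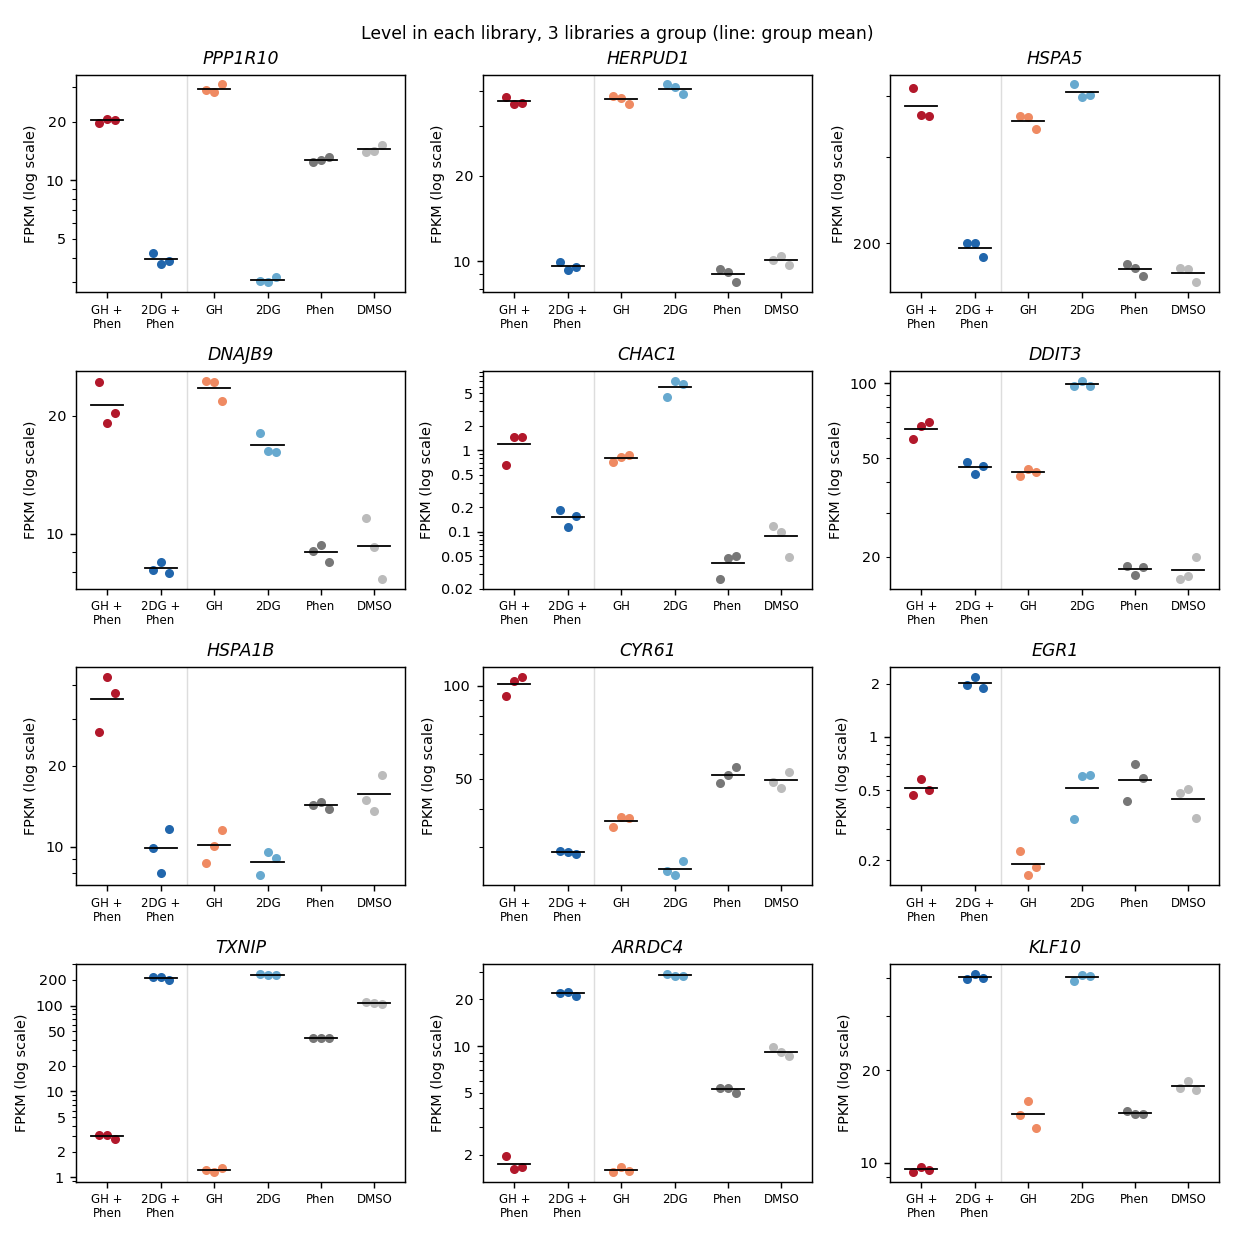
FPKM of 12 genes in every library of the 6 groups, on log axes that differ between panels, with a line at each group mean. For HERPUD1 and DNAJB9 the 2DG plus phenformin means lie close to those of phenformin and DMSO, for HSPA5 the 2DG plus phenformin libraries, at 187.5 to 200.3 FPKM, lie somewhat above both groups, and for TXNIP, ARRDC4 and KLF10 the GH plus phenformin libraries sit below every 2DG plus phenformin library.

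Targets of the integrated stress response split. Of 40 tested genes 11 were higher (27.5%) and 2 lower (5%) with GH plus phenformin, against 8.33% and 2.16% of all genes. The median log2 difference was 0.084, and 10 were higher and 2 lower without library A. CHAC1, which degrades glutathione, had 0.648, 1.46 and 1.44 FPKM with GH plus phenformin, against 0.185, 0.115 and 0.157 FPKM with 2DG plus phenformin. These levels rest on 30, 66 and 59 fragments against 8, 5 and 7, and library A had the lowest value of its group. The means differed 7.76-fold (limma adjusted p = 4.85e-05). In 2DG alone CHAC1 averaged 5.99 ± 1.33 FPKM, above GH alone at 0.802 ± 0.0795, so the order of the 2 agents was opposite without phenformin, and the difference of differences, 5.01 ± 0.37 (SE, log2), was the largest among the named genes. DDIT3, which encodes CHOP, showed the same turn, at 59.8, 67.6 and 69.7 FPKM with GH plus phenformin, against 48.1, 43.0 and 46.6 FPKM with 2DG plus phenformin, and at 43.8 ± 1.23 FPKM in GH alone against 99.3 ± 2.71 FPKM in 2DG alone. SESN2, a stress-induced inhibitor of mTORC1, was at 1.73, 2.81 and 2.80 FPKM against 1.22, 0.948 and 1.18 FPKM, and at 2.19 FPKM in GH alone against 5.28 FPKM in 2DG alone. STC2, a secreted glycoprotein gene of the response, had a log2 difference of 0.29 (SE 0.036).

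The 2 lower members of that list were DDIT4 and GDF15. DDIT4, another inhibitor of mTORC1, was at 22.1, 29.8 and 29.7 FPKM with GH plus phenformin, against 47.9, 45.6 and 49.7 FPKM with 2DG plus phenformin, and averaged 17.4 FPKM in GH alone, 88.7 in 2DG alone, 18.01 in phenformin alone and 23.9 in DMSO. GDF15, a secreted stress cytokine, was at 1.45, 2.55 and 2.82 FPKM against 7.51, 6.0 and 7.38 FPKM, 3.06-fold lower with GH plus phenformin. ATF4 itself, whose protein is controlled mainly by translation, averaged 148 ± 9.76 FPKM against 136 ± 3.95 FPKM (SD, n = 3 each), with groups that overlapped (limma adjusted p = 0.117). The overlap was between library A of GH plus phenformin, at 136.8 FPKM, and library A of 2DG plus phenformin, at 140.6 FPKM. The other libraries were at 152.9 and 154.5 FPKM with GH plus phenformin and 134.0 and 133.5 FPKM with 2DG plus phenformin. Without library A of GH plus phenformin the log2 difference was 0.176 (limma adjusted p = 0.0112).

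Inducible cytosolic heat shock genes were high in GH plus phenformin. The strict list held HSPA6, HSPA1A and HSPA1B, which encode inducible HSP70 proteins. HSPA1A and HSPA1B are near-identical copies and HSPA6 has a close relative, so the split of fragments between them is uncertain. The HSPA6 promoter, chosen for display after its values and matches were seen, holds a heat shock element (3 alternating blocks of GAA and TTC, starting with either, with 2 bases between blocks) 74 bases before the start, and AP-1 sites (TGAGTCA or TGACTCA) 139 and 244 bases before it. The window is chr1:161524290-161524589 (plus strand), with the matches in capitals.
HSPA6: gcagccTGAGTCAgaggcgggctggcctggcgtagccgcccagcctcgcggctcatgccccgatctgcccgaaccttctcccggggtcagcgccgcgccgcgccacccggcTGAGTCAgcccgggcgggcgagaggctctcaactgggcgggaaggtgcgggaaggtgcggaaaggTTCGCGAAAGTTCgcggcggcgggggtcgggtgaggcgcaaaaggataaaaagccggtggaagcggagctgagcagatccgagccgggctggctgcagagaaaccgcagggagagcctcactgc
The heat shock element was found in 0.49% of all windows and the AP-1 site in 4.95%. The windows of HSPA1A and HSPA1B held no match to either. That search asked for 3 complete blocks, so a heat shock element with an imperfect block would be missed. HSPA6 was at 0.694, 1.25 and 1.30 FPKM (37, 65 and 61 fragments) with GH plus phenformin, against 0.161, 0.0400 and 0.117 FPKM (8, 2 and 6 fragments) with 2DG plus phenformin, a 10.2-fold difference of the means (limma adjusted p = 5.03e-05). HSPA1B was at 26.7, 42.7 and 37.2 FPKM against 9.94, 8.00 and 11.7 FPKM, and HSPA1A at 9.27, 16.9 and 15.9 FPKM against 3.65, 3.13 and 4.16 FPKM. In each of the 3 genes library A was the lowest of its group and still above every 2DG plus phenformin library. The other groups lay well below GH plus phenformin, with HSPA1B at 10.1 ± 1.46 FPKM in GH alone, 8.83 ± 0.878 in 2DG alone, 14.3 ± 0.412 in phenformin alone and 15.7 ± 2.55 in DMSO. Here too the difference depended on phenformin, by 2.81 for HSPA6, 1.82 for HSPA1A and 1.63 for HSPA1B on the log2 scale. Most of the list did not follow. Of 28 tested heat shock genes 6 were higher (21.4%) and 1 lower (3.57%), against 8.33% and 2.16% of all genes. The median log2 difference was 0.048, and 5 were higher and 1 lower without library A. The lower one was HSPA8, the constitutive HSP70, at 549, 518 and 507 FPKM against 671, 684 and 630.2 FPKM.

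CYR61 and some other targets of YAP-TEAD and SRF were higher with GH plus phenformin. These factors respond to cell shape and the actin cytoskeleton. Of 24 tested targets 7 were higher (29.2%) and 0 lower, against 8.33% and 2.16% of all genes. The list's median log2 difference was 0.054, near the 0.02 of all genes, and 5 were higher and 0 lower without library A. CYR61, a matricellular protein gene on chromosome 1 at 85580761 to 85583962 (GRCh38, plus strand), was at 92.6, 104 and 106 FPKM with GH plus phenformin, against 29.3, 29.0 and 28.6 FPKM with 2DG plus phenformin. The difference was 3.48-fold, 1.79 ± 0.061 (SE) on the log2 scale (limma adjusted p = 4.05e-11). CYR61 averaged 36.6 ± 1.49 FPKM in GH alone, 25.5 ± 1.39 in 2DG alone, 51.5 ± 2.92 in phenformin alone and 49.4 ± 3.10 in DMSO (SD, n = 3 each), so that GH plus phenformin was the only group above phenformin and DMSO. ANKRD1, a cardiac ankyrin repeat gene and YAP target, was at 7.03, 6.76 and 6.33 FPKM against 2.72, 2.83 and 2.43 FPKM, and AMOTL2, which holds YAP at the membrane, at 13.1, 17.0 and 16.7 FPKM against 7.82, 7.51 and 8.46 FPKM. LATS2, the kinase that restrains YAP, had a log2 difference of 0.34. CTGF, the usual companion of CYR61, averaged 38.9 FPKM against 37.1 FPKM and did not pass the test (limma adjusted p = 0.33).

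Immediate early genes went the other way. Of 22 tested genes 11 were lower with GH plus phenformin (50% against 2.16% of all genes) and 1, CYR61, was higher, and the list's median log2 difference was -0.33. The same counts, 11 lower and 1 higher, were found without library A. EGR1, a zinc finger factor induced by ERK signalling, lies on chromosome 5, and its promoter window (chr5:138465229-138465528, plus strand) is shown because the CArG boxes, the binding element of SRF, lie in it 105 and 83 bases before the start, in capitals.
EGR1: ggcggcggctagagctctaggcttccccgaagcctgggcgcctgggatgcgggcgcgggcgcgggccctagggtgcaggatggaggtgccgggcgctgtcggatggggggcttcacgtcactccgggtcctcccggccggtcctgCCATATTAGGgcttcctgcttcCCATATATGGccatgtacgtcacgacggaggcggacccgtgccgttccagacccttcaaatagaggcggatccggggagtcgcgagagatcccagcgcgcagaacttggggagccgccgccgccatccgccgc
CArG boxes were found in 1.29% of all windows. EGR1 was at 0.467, 0.580 and 0.497 FPKM (33, 40 and 31 fragments) with GH plus phenformin, against 1.96, 2.18 and 1.89 FPKM (129, 144 and 128 fragments) with 2DG plus phenformin. It was thus 3.90-fold lower, a log2 difference of -1.78 ± 0.20 (SE; limma adjusted p = 3.72e-05). GH alone stood at 0.191 ± 0.0308 FPKM, 2DG alone at 0.515 ± 0.150, phenformin alone at 0.571 ± 0.133 and DMSO at 0.445 ± 0.0841, so 2DG plus phenformin was the group that stood out.

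KLF10, a TGF-β inducible repressor, was at 9.36, 9.68 and 9.51 FPKM with GH plus phenformin, against 39.6, 41.3 and 39.9 FPKM with 2DG plus phenformin, 4.23-fold lower (limma adjusted p = 1.66e-12). 2DG alone was as high as 2DG plus phenformin, at 40.2 ± 0.928 FPKM, and GH alone stood at 14.4 ± 1.48, phenformin alone at 14.5 ± 0.198 and DMSO at 17.7 ± 0.678. KLF6, a related factor, was at 26.5, 25.8 and 25.9 FPKM against 49.1, 49.3 and 49.1 FPKM, and its DMSO mean was 10.2 ± 0.246, so both combinations lay above the solvent. IER2 had a log2 difference of -0.89 and IER3, which also belongs to the ERK feedback genes, one of -1.35. Of 17 genes of ERK feedback and output 0 were higher and 5 lower (29.4%), among them PHLDA1 at -0.71, the receptor kinase inhibitor SPRY2 at -0.54 and SH2B3 at -0.29, and 4 were lower without library A. SPRY2 averaged 9.54 FPKM with GH plus phenformin and 13.9 FPKM with 2DG plus phenformin, against 2.04 FPKM in DMSO. PHLDA1 averaged 56.2 and 92.0 FPKM, against 40.5 FPKM in DMSO. IER3 and SH2B3 also lay above DMSO in both combinations. From its blots the study reported phosphorylated ERK raised by GH plus phenformin and reduced by the other combination. ERK activity itself was not tested here. Of 7 MAP kinase phosphatases 2 were higher (28.6%) and 1 lower (14.3%), against 8.33% and 2.16% of all genes, and 1 and 1 without library A. DUSP10, which acts on p38 and JNK, was at -0.50, and DUSP4 and DUSP16 at 0.22 and 0.36. MYC was at 22.8, 28.7 and 29.6 FPKM against 30.0, 28.9 and 32.3 FPKM, with overlapping groups (limma adjusted p = 0.312).

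TXNIP and ARRDC4, alpha-arrestins driven by MondoA, gave the largest differences of all. The TXNIP promoter (chr1:145996530-145996829, minus strand) is shown because it holds the paired E-box on which MondoA-MLX acts (CACGNG repeated with 5 bases between the copies, in capitals, 88 bases before the start), a match found in 0.057% of all windows. A second annotated TXNIP window and the ARRDC4 window held no such match.
TXNIP: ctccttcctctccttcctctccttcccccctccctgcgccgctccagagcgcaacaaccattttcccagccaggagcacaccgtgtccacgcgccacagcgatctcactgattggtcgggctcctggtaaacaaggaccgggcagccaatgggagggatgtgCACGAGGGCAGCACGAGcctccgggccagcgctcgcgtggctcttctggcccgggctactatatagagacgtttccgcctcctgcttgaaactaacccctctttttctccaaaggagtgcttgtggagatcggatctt
TXNIP was at 3.13, 3.13 and 2.83 FPKM with GH plus phenformin, against 216, 216 and 199.7 FPKM with 2DG plus phenformin. It was 69.6-fold lower, a log2 difference of -6.07 ± 0.046 (SE; limma adjusted p = 6.59e-20). ARRDC4 was at 1.98, 1.62 and 1.67 FPKM against 22.1, 22.4 and 21.0 FPKM, 12.4-fold lower. Phenformin alone was between the combinations in both genes, at 41.8 ± 0.364 FPKM for TXNIP and 5.27 ± 0.221 for ARRDC4, below DMSO at 107 ± 2.51 and 9.21 ± 0.62. GH alone had TXNIP at 1.22 ± 0.0590 FPKM and 2DG alone at 229 ± 5.23, so the gap between the agents was wider without phenformin. The difference of differences was 1.36 for TXNIP and 0.51 for ARRDC4. ARRDC3, another alpha-arrestin, was at 26.0, 23.8 and 22.6 FPKM against 42.9, 45.8 and 40.6 FPKM. Of the 7 tested genes of the list these 3 were lower and none was higher, also 3 without library A, and the factors themselves did not pass the test, with MLX at a log2 difference of -0.03 and MLXIP, which encodes MondoA, at -0.08.

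**Figure D4:**
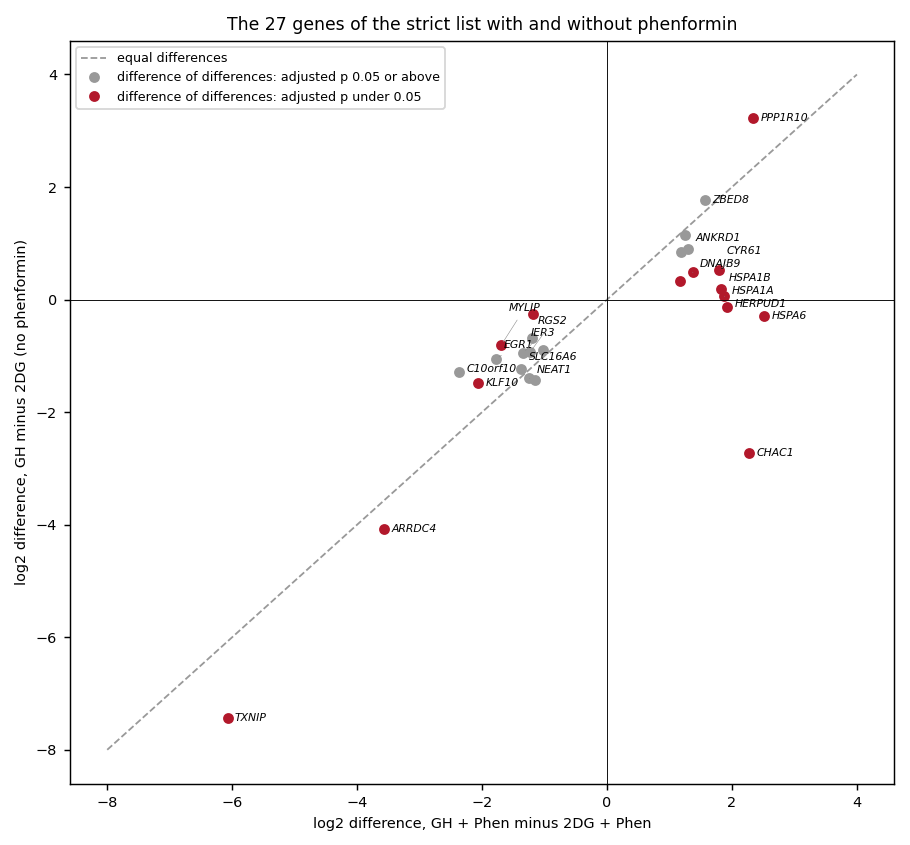
The 27 genes of the strict list, with the log2 difference GH plus phenformin minus 2DG plus phenformin on the x axis and the log2 difference GH minus 2DG without phenformin on the y axis; the dashed line marks equal differences and the 10 largest differences in each direction are named. Red points are the 14 genes whose difference of differences had a limma adjusted p under 0.05; CHAC1, at 2.28 and -2.73, lies furthest from the line.

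Of the 13 higher genes of the strict list 9 depended on phenformin in this sense, and of the 14 lower genes 5 did. ZBED8, BCDIN3D and BBS12 were higher with GH plus phenformin at log2 differences of 1.57, 1.25 and 1.19. ZBED8, a transposase-derived gene, was at 3.27, 2.57 and 2.84 FPKM against 0.733, 1.103 and 0.917 FPKM, and averaged 5.05 FPKM in GH alone, 1.41 in 2DG alone, 4.62 in phenformin alone and 4.13 in DMSO, so that the 2 groups with 2DG were the low ones. ZNF79 had a log2 difference of 1.17. The zinc finger genes as a family held many small differences. Of 414, 77 were higher (18.6%) and 10 lower (2.42%), against 8.33% and 2.16% of all genes. Their median log2 difference was 0.112. They were GC-poor, at a median of 42.7%, and without library A 53 were higher and 14 lower.

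The remaining lower genes of the strict list were mixed in function. C10orf10, a FOXO target also known as DEPP1, was at 0.328, 0.443 and 0.304 FPKM with GH plus phenformin, against 2.62, 1.77 and 2.49 FPKM with 2DG plus phenformin. MYLIP, a ubiquitin ligase for the LDL receptor, was at 1.36, 1.096 and 1.145 FPKM against 4.09, 4.25 and 3.94 FPKM, and SLC16A6, a monocarboxylate transporter gene, at 9.84, 9.70 and 9.61 FPKM against 26.6, 26.4 and 23.0 FPKM. RGS2, which turns off Gq signalling, differed by -1.23, the nuclear RNA NEAT1 by -1.24, the vasodilator peptide gene ADM by -1.20, HES1, a Notch target, by -1.18 and KLF11 by -1.16 on the log2 scale. For each of these genes except RGS2 the highest mean of the 6 groups was that of 2DG plus phenformin. It was 25.3 FPKM for SLC16A6, 88.2 FPKM for ADM and 22.9 FPKM for NEAT1. RGS2 was highest in DMSO.

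Metabolic genes differed little apart from those named. Of 25 tested genes of glycolysis and of glucose or lactate transport 0 were higher and 3 lower (12%, against 2.16% of all genes). The same 3 were lower without library A. They were SLC2A3, a high-affinity glucose transporter, PFKFB3, which makes the activator of phosphofructokinase, and HK2, a hexokinase. SLC2A3 was at 8.00, 7.82 and 8.25 FPKM with GH plus phenformin, against 14.4, 14.6 and 13.6 FPKM with 2DG plus phenformin. PFKFB3 and HK2 had log2 differences of -0.68 and -0.36. LDHA, which makes lactate, averaged 666 FPKM against 687 FPKM and did not pass the test. Of 25 genes of mTORC1, AMPK and energy sensing 3 were higher (12%, against 8.33% of all genes), among them SESN1 at 0.39 and SESN2 at 1.04. In the same list 2 were lower (8%, against 2.16% of all genes), DDIT4 at -0.82 and FOXO1 at -0.63. Without library A SESN1 no longer passed, and 1 was higher and 2 lower. Of 22 genes of cholesterol and fatty acid synthesis 5 were higher (22.7%) and 1 lower (4.55%), against 8.33% and 2.16% of all genes. Without library A 4 were higher and 1 lower. The higher ones included IDI1 at 0.39 and STARD4 at 0.39. INSIG1, which retains the activators of that pathway in the ER, was lower, at 162, 148 and 147 FPKM against 257, 269.7 and 249.6 FPKM. Of 36 nuclear-encoded complex I subunits 0 were higher and 1 (2.78%), NDUFS3, was lower at -0.12, which was lost without library A. Of 15 mitochondrially encoded transcripts 4 were higher (26.7%, against 8.33% of all genes), and 1 without library A. The 4 were MT-CO1, MT-ND2, MT-ND5 and MT-CYB, at 0.22 to 0.29.

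Secreted factors were divided. Of 22 tested cytokines, growth factors and NF-κB feedback genes 3 were higher and 6 lower with GH plus phenformin, and 2 and 5 without library A. The shares were 13.6% and 27.3%, against 8.33% and 2.16% of all genes. PTGS2, which makes prostaglandins, was at 0.186, 0.121 and 0.172 FPKM (22, 14 and 18 fragments) with GH plus phenformin, against 0.633, 0.576 and 0.562 FPKM (70, 64 and 64 fragments) with 2DG plus phenformin. The chemokine gene CCL2 had a log2 difference of -0.60 and INHBA, a subunit of activin, one of 0.62. MT1X and SLC30A1 were the lower 2 of 6 tested metallothionein and zinc transport genes (33.3%, against 2.16% of all genes). Without library A 2 were lower. MT1X was at 8.45, 17.8 and 17.4 FPKM against 37.8, 30.9 and 42.0 FPKM, with library A lowest, and its copies in the metallothionein family can share fragments with it. Of 9 tested polyamine genes 1 was higher (11.1%) and 2 lower (22.2%), against 8.33% and 2.16% of all genes, and 0 and 3 without library A. SAT1, the catabolic acetyltransferase, differed by -0.62 and ODC1, the first enzyme of synthesis, by -0.27. AMD1, which supplies the aminopropyl donor, differed by 0.23 and no longer passed without library A.

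**Figure D5:**
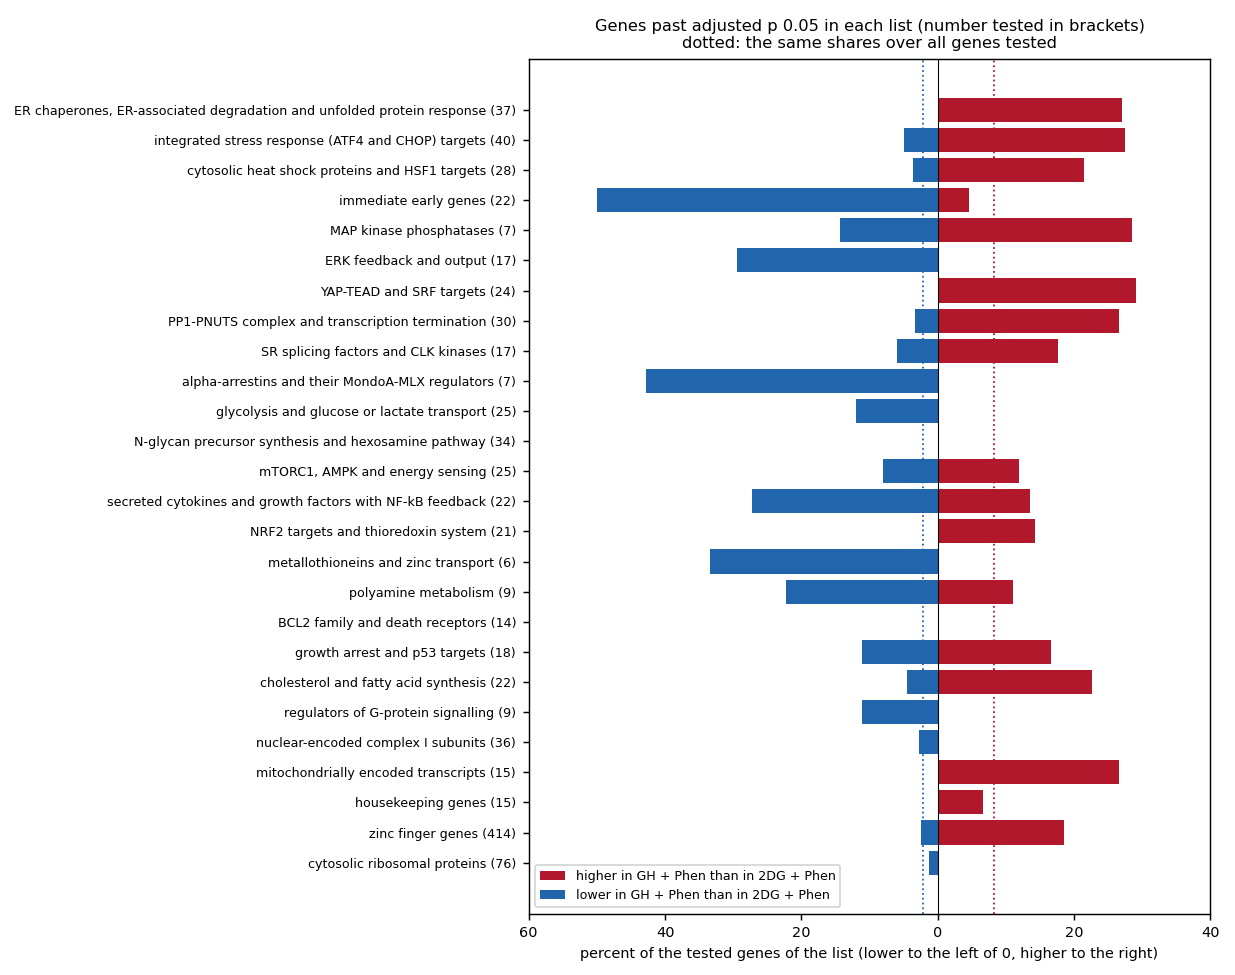
Share of the tested genes of each list that were higher (right) or lower (left) with GH plus phenformin at a limma adjusted p under 0.05, with dotted lines at the shares over all genes, 8.33% and 2.16%. The immediate early genes reach 50% lower, and the ER, integrated stress response, YAP-TEAD and PNUTS lists lie between 26.7% and 29.2% higher.

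The list counts depended on the other 4 groups sharing in the estimate of spread. With only the 6 libraries of the 2 combinations in the fit, 5 ER genes, 2 integrated stress response genes, 3 heat shock genes, 4 YAP-TEAD and SRF targets, 3 genes of the PNUTS list and 5 zinc finger genes were higher, and 7 immediate early genes were lower. Over all 12108 genes tested, 60 were higher and 58 lower in that fit. It left no higher gene in the cholesterol, mitochondrially encoded, NRF2, splicing, polyamine or energy-sensing lists. Nor did it leave any among the cytokines or the MAP kinase phosphatases.

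Genes of cell death and of growth arrest were counted apart. Of 14 tested BCL2 family and death receptor genes 0 were higher and 0 lower by the limma test, with library A or without it, and 3 of the 14 did not overlap between the combinations (21.4%, against 22.8% of all genes). Of 18 genes of growth arrest and the p53 response 3 were higher and 2 lower (16.7% and 11.1%, against 8.33% and 2.16% of all genes), and 2 and 3 without library A. PLK2, a kinase induced by stress, was at 145, 126 and 124 FPKM with GH plus phenformin, against 88.2, 88.1 and 80.4 FPKM with 2DG plus phenformin, and GADD45B was higher by 0.57, with overlapping groups and a call lost in 6 of 19 alternatives. The cell cycle inhibitor gene CDKN1A was at 6.73, 10.5 and 10.1 FPKM against 12.7, 12.01 and 13.8 FPKM, and did not pass without library A. Of 21 NRF2 and thioredoxin genes 3 were higher (14.3%, against 8.33% of all genes), and 2 without library A. The 3 were SLC7A11 at 0.38, GCLM at 0.31 and TXNRD1 at 0.18. Of 9 regulators of G-protein signalling RGS2 was the 1 lower gene (11.1%), also without library A. Of 76 cytosolic ribosomal protein genes 1 (1.32%), RPL30, was lower at -0.10, a call lost without library A and in 9 of 19 alternatives in all. Of 15 housekeeping genes 1 (6.67%), TBP, was higher at 0.31, as it was without library A.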

How the data were processed

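RNA of T98G cells was sequenced as stranded, polyadenylated, paired-end libraries. Alignment to GRCh38 and its Ensembl gene models was done by the authors in CLC Genomics Workbench, strand-aware, and the deposited table gives FPKM for 55128 genes in 18 libraries. Whole fragments could be recovered from the FPKM steps for 99.93% of the 25158 genes above 0 (tolerance 0.001 fragments). Genes with at least 0.5 FPKM in at least 3 libraries were tested on log2(FPKM + 0.1), a scale that understates the change of low genes, with limma 3.58.1 (R 4.3.3, trended variance). All 18 libraries entered 1 model with 12 residual degrees of freedom, and p-values were adjusted over all 12108 tested genes. The contrasts were GH plus phenformin minus 2DG plus phenformin, and this difference minus GH minus 2DG. Single values per library were compared by exact permutation.

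Named by rule were PPP1R10, CYR61, HERPUD1, EGR1 and MYC, the genes the study names from its RNA-seq (TXNIP, ARRDC4, HSPA6, HSPA1A, HSPA1B and DNAJB9), the 10 largest non-overlapping differences in each direction on the strict list, and up to 4 members of each of the 28 lists by smallest adjusted p. All other genes, the rest of the strict list included, were chosen after their values were seen. The comparison, genes and lists were chosen with earlier results of these data known. Alternatives were other scalings, pseudocounts and filters, only the groups of each contrast, a replicate block and limma's voom on recovered fragments. Others were a correction for GC content and length (GENCODE 44, 99.29% of the tested genes) and leaving out single libraries. Left out in turn were each library of the combinations and, for the second contrast, of GH and 2DG alone. The fits were tested on simulated data. Promoters came from RefSeq on GRCh38.p14, and CYR61 had no entry. Tables and figures used Python 3.11.15. For 2DG the labels and methods give 10 mM, the value used here, while the study's results text gives a higher dose, so the 2DG dose is uncertain. A few results are not reported here.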

Additional observations from a re-analysis of the deposited data

Results flagged for a closer look

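For 26 genes, named by rule or on the strict list, the difference between GH and 2DG was not the same with phenformin as without it, by an interaction term in the limma model (adjusted p under 0.05 over all 12108 genes). The values below are log2 differences of differences, the difference between the combinations minus that between GH and 2DG alone, and positive values mean that GH stood relatively higher when phenformin was present.

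Among ER and integrated stress response genes they were 5.01 for CHAC1, 2.29 for SESN2, 2.05 for HERPUD1, 1.69 for DDIT3, 1.53 for DDIT4, 1.15 for HSPA5, 0.88 for DNAJB9 and 0.58 for XBP1. In CHAC1, DDIT3 and SESN2 2DG alone stood above GH alone, while GH plus phenformin stood above 2DG plus phenformin. ATF4, outside the rule, had 0.83. The heat shock genes HSPA6, HSPA1A and HSPA1B had 2.81, 1.82 and 1.63. CYR61 had 1.27, the growth arrest gene GADD45B 1.42 and ZNF79 0.84. The ZNF79 value fell short of the threshold in 9 of 25 alternatives (0.458 to 1.012 over all of them).

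TXNIP had 1.36 and ARRDC4 0.51, both lower with GH whether or not phenformin was present. PPP1R10 had -0.88, higher with GH in both settings. The genes lower with GH plus phenformin had KLF10 at -0.59, MYLIP at -0.89, HES1 at -0.93, INSIG1 at -0.48, KLF6 at 0.37 and PHLDA1 at 0.38. The phosphatase gene DUSP4 had 0.45, and the splicing factor genes TRA2B and SRSF7 had 0.43 and 0.31.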

How the results depend on the processing

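The counts of 1009 higher and 261 lower genes depended on the fit. With only the 2 groups compared (4 residual degrees of freedom in place of 12) they were 60 and 58, with 4 and 6 on the strict list. A separate fit of the 2 combinations with GH alone and 2DG alone gave 113 genes that depended on phenformin. Quantile normalization gave 469 higher. The GC and length correction gave 421 lower genes and 538 that depended on phenformin, and together with the omission of library A of GH plus phenformin, chosen after seeing the data, 1045. A pseudocount of 1 left 8 genes on the higher side of the strict list. Leaving out each library of the combinations gave 534 to 1043 higher, 169 to 262 lower, 13 to 16 and 13 to 15 on the strict list, and, with GH and 2DG alone included, 127 to 850 that depended on phenformin. No library of phenformin alone or DMSO was left out. Single omissions past 1.5 times were library A (650 higher, 169 lower) and library C (534 higher) of 2DG plus phenformin, library A of GH plus phenformin (600 higher, 850 dependent) and library A of GH alone (127 dependent).

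Same-lettered libraries of the combinations deviated together at r = 0.008 (A), -0.434 (B) and 0.422 (C), and the main fit did not pair the letters. These correlations leave out the other groups, so they do not settle whether libraries of a letter deviate together over all groups. Library A had the lowest slope along GC content of its group in every group except 2DG plus phenformin. With a replicate block 1361 genes were higher, 332 lower and 386 depended on phenformin, and with block and GC correction 606 were lower and 898 depended on phenformin.

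No named gene past the threshold changed direction. Of those named that did not pass, LDHA, MLX, MLXIP, CD44, KRT18 and SNAP25 took either sign over the alternatives. A wider set of 145 results held these genes, others not named in the text and the mitochondrial share. Over that set 2540 values stayed as in the main fit, 169 lost the threshold and 26 gained it. The causes were not tested. Levels under about 0.2 FPKM (HSPA6, CHAC1, PTGS2) rest on few fragments.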

Other observations

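Further genes, chosen after their values were seen, also differed between the combinations. Some were lower with GH plus phenformin. ZFP36L1, an mRNA decay factor, was at 40.4, 37.1 and 36.2 FPKM with GH plus phenformin, against 58.7, 59.1 and 59.2 FPKM with 2DG plus phenformin, and ID2, an inhibitor of helix-loop-helix factors, at 11.8, 10.7 and 10.8 FPKM against 19.6, 19.6 and 19.9 FPKM. BHLHE40 had a log2 difference of -0.76, SOX4 one of -0.76, SOX9 one of -0.50, NFIL3 one of -0.51 and the kinase genes PIM1 and PIM3 ones of -0.51 and -0.68 (limma adjusted p at most 0.000314 for each of these genes). DGAT2, which makes triglycerides, was at 0.141, 0.178 and 0.146 FPKM against 0.639, 0.636 and 0.849 FPKM.

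Among the higher genes EIF5, a translation initiation factor gene, was at 26.6, 22.3 and 22.3 FPKM with GH plus phenformin, against 15.7, 15.9 and 15.5 FPKM with 2DG plus phenformin, and averaged 45.0 FPKM in GH alone, 31.6 in 2DG alone, 47.8 in phenformin alone and 44.2 in DMSO. Both combinations thus lay below every other group. FICD, the enzyme that modifies BiP, was at 2.05, 2.33 and 2.09 FPKM against 1.22, 1.28 and 1.34 FPKM. RUNX1 and ARID5B had log2 differences of 0.63 and 0.62.

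PPARGC1A, a coactivator of mitochondrial biogenesis, averaged 1.82 FPKM with GH plus phenformin and 1.63 FPKM with 2DG plus phenformin, with overlapping groups, and 4.74 FPKM in 2DG alone against 2.49 FPKM in GH alone.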
